A study of Fragaria x ananassa with 9 samples.

Results

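The genes described here are those of starch metabolism in the petals of a pink-flowered strawberry, from ADP-glucose formation to the release and use of sugars from the granule. They were chosen by protein description: unigenes whose best SwissProt match was described as a starch synthase, an amylase or isoamylase, a starch branching enzyme, a glucose-1-phosphate adenylyltransferase, a water dikinase, an alpha-glucan phosphorylase or a 4-alpha-glucanotransferase. A unigene is the longest transcript of a cluster in the authors' de novo assembly. Of 50285 unigenes, 74 had such a description, and 73 of them reached 1 TPM (a relative abundance that corrects for transcript length and library total) in at least 3 of the 9 libraries. The one left out was a 276 bp isoamylase 1 unigene that averaged 1.34, 0.13 and 0.41 TPM at the young bud, the beginning of coloration and the big bud. The wording of the description decided membership: plastid phosphorylases, described as alpha-1,4 glucan phosphorylase L isozymes, were not matched and are given with the other starch genes at the end. The 73 comprised 27 unigenes of synthesis, 8 of isoamylase-type debranching and 38 of breakdown.

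Petals of the cultivar Sijihong, bred from Pink Princess and Pretty Beauty, were sampled at 3 stages: the young bud, named PF_L, the bud at which color first appears, PF_Z, and the big bud, PF_D. Each stage had 3 biological replicates, and all 9 libraries were of poly(A) RNA from this single cultivar, with no mutant, treatment or second genotype, so the only contrast was the stage. The libraries summed to between 993148 and 994911 TPM over the listed unigenes. TPM keeps no read counts, so the depth behind a value is unknown and the lowest values are the least certain.

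Starch is a store of glucose held in plastids. ADP-glucose pyrophosphorylase makes the activated sugar, starch synthases extend chains with it, branching enzymes add the branch points, and some isoamylases trim them so that the granule can form. In breakdown, glucan water dikinase phosphorylates the granule surface, beta-amylases and debranching enzymes release maltose and short glucans, and maltose exported from the plastid is used in the cytosol by the glucanotransferase DPE2 and a cytosolic phosphorylase. In petals of several species starch is known to accumulate in the bud and to be broken down to sugars around opening. No starch or sugar was measured in these files, and the values below are of transcripts only.

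A gene name here is that of the closest SwissProt protein, usually of another species, and so marks a relative, not a strawberry gene of known function. The 73 unigenes had 38 descriptions in all, and 53 shared their best protein with another of the 73. Trinity components (groups of assembled sequences that share sequence) held more than one member in 16 cases, covering 36 unigenes. Lengths ran from 209 to 5397 bp with a median of 1400 bp, and 21 unigenes were under 500 bp. Several unigenes can therefore be pieces, alleles or homoeologues of a single gene, and reads may be split between them, so the summed TPM of each enzyme class is given beside single unigenes. A sum counts a gene in pieces more than once, and sums carry no test. Identifiers are given without the prefix TRINITY_.

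Summed over the 73 unigenes, starch transcripts were at 2235, 1985 and 2069 TPM in PF_L, 2959, 2520 and 2878 TPM in PF_Z, and 4018, 5762 and 4814 TPM in PF_D. The 3 stages did not overlap, and PF_D was 2.32 times PF_L. The breakdown unigenes carried most of this difference, with 3421 ± 769 TPM in PF_D against 1084 ± 91.0 TPM in PF_L (SD, n = 3 each). Synthesis unigenes summed to 1106 ± 135 TPM in PF_D and 744 ± 40.9 TPM in PF_L (SD, n = 3 each). The ratio of breakdown to synthesis TPM was 1.48, 1.37 and 1.52 in the PF_L libraries, 1.73, 1.74 and 1.39 in PF_Z, and 2.64, 3.33 and 3.25 in PF_D. The ratios of PF_L and PF_Z overlapped, and all 3 PF_D ratios lay above both. A ratio of sums is weighted to the most abundant unigenes and does not show a shift of breakdown unigenes in general. Of the 38 breakdown unigenes, 16 had a positive and 22 a negative log2 fold change in PF_D over PF_L (median -0.18). Of the 27 synthesis unigenes, 8 were positive and 19 negative (median -0.48).

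**Figure D1:**
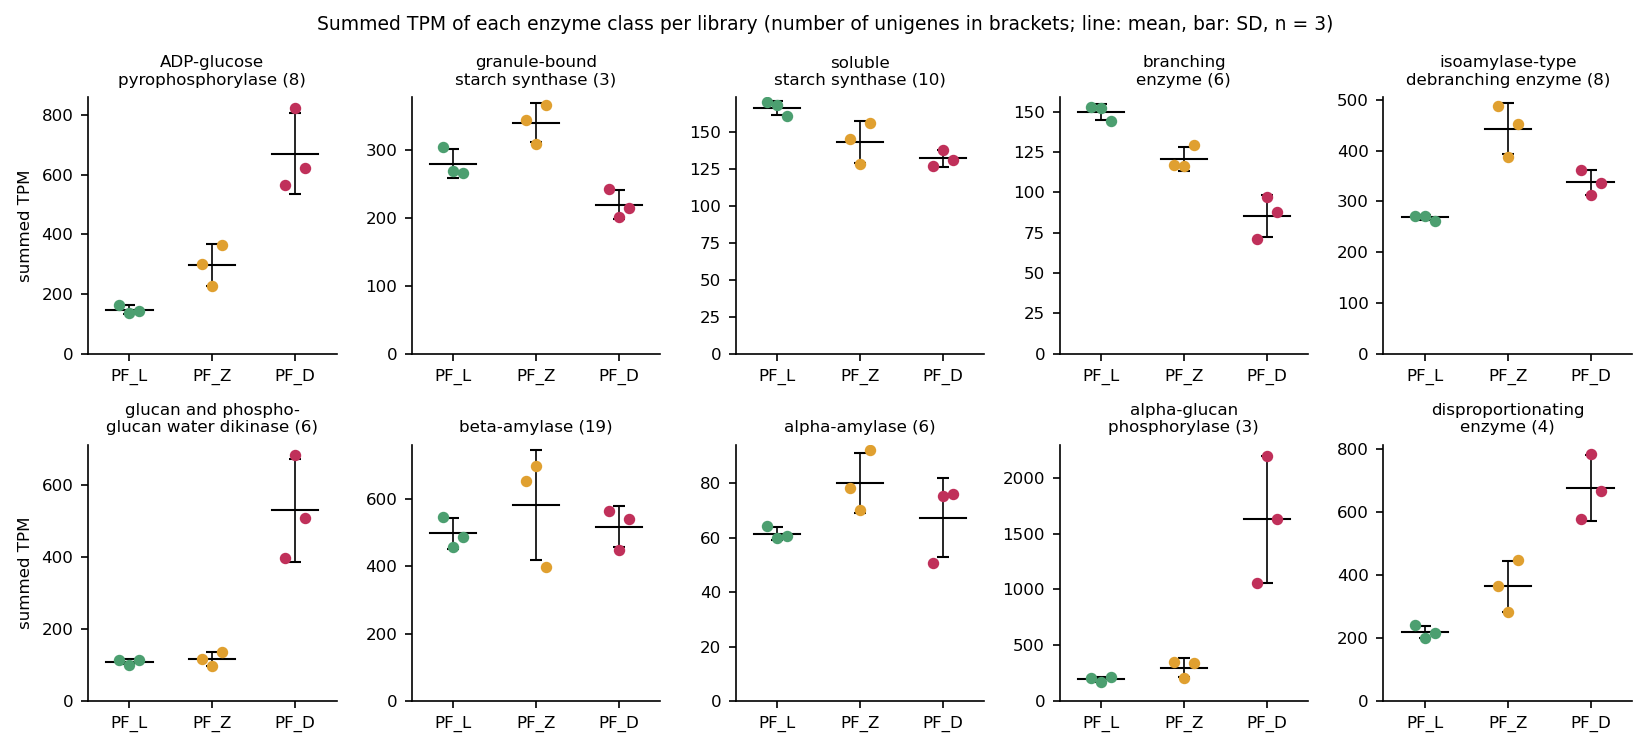
Summed TPM (vertical axes, from 0) of each enzyme class in every library, by stage from PF_L to PF_D; points are libraries, lines are means and bars are SDs (n = 3), with the number of unigenes in brackets. Cytosolic-type phosphorylases reached 1061 to 2197 TPM in PF_D and at most 353 TPM earlier, while branching enzymes were at 71.3 to 96.8 TPM in PF_D and at 144 to 153 TPM in PF_L.

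A few unigenes made up much of the PF_D total. The 4 highest in PF_D, which were 3 phosphorylase unigenes and a glucan water dikinase, accounted for 11.3% of the summed TPM of the 73 in PF_L, 12.6% in PF_Z and 42.3% in PF_D (means over libraries). They were picked by their PF_D values, so a larger share in PF_D follows in part from the choice. Some of the phosphorylase unigenes share a component and can be pieces of a single gene.

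Stages were compared with limma on log2(TPM + 1) over all 47924 unigenes that passed the 1 TPM limit. Calls needed an absolute log2 fold change of 1 or more together with a Benjamini-Hochberg adjusted p under 0.05. Fold changes below are on this scale, which understates the change of low unigenes. Each stage enters 2 of the 3 comparisons, so these are not independent of each other.

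Between PF_D and PF_L, 17 of the 73 unigenes (23.3%) were called higher and 12 (16.4%) lower, where 9.38% of all tested unigenes were called higher and 15.7% lower. The median log2 fold change of the 73 was -0.28 and that of all tested unigenes -0.12. By enzyme class, the unigenes called higher were all 3 cytosolic-type phosphorylases, all 4 disproportionating enzymes, 3 of 6 dikinases, 4 of 8 ADP-glucose pyrophosphorylases, 1 of 10 soluble synthases, 1 of 8 isoamylases and 1 of 19 beta-amylases. The called-lower unigenes were 4 of 19 beta-amylases, 3 of 6 branching enzymes, 3 of 10 soluble starch synthases, 1 of 3 granule-bound synthases and 1 ADP-glucose pyrophosphorylase. Among the 41 unigenes of 1000 bp or more, 9 were called higher and 7 lower.

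Between PF_D and PF_Z, 12 of 73 were called higher and 9 lower, against 8.89% and 9.07% of all tested unigenes. The median log2 fold change was -0.25 for the 73 and 0.08 over all tested. Between PF_Z and PF_L, 4 of 73 were called higher and none lower, against 2.15% and 4.7% of all tested (6.84% in either direction; 18% for PF_D against PF_Z and 25.1% for PF_D against PF_L). At an unadjusted p under 0.05, 16 were higher and 11 lower in PF_Z. Shares of all tested unigenes at an unadjusted p were not calculated, here or below, so such counts have no background. All unigenes had a median log2 fold change of -0.21 in that comparison, and 31.4% of all its calls were higher. With median-of-ratios scaling of the libraries this median was -0.03, the share of higher calls was 49.6%, and 11 starch unigenes were called higher and none lower. Over all 47924 tested unigenes, that scaling gave 1417 higher and 1438 lower.

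Among the 73, 34 were called in at least 1 comparison and 39 in none. The matching share of all tested unigenes was not calculated, so this count has no background beside it. The libraries of PF_D lay wholly above those of PF_L for 22 unigenes and wholly below for 30, where 20.6% and 29.5% of all tested unigenes did so. For PF_D against PF_Z the counts were 16 above and 22 below, with 22.6% and 18.2% of all tested, and for PF_Z against PF_L 17 above and 17 below, with 8.26% and 23.2%. In bulk petals, fewer cells with a transcript and less of it per cell cannot be told apart.

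**Figure D2:**
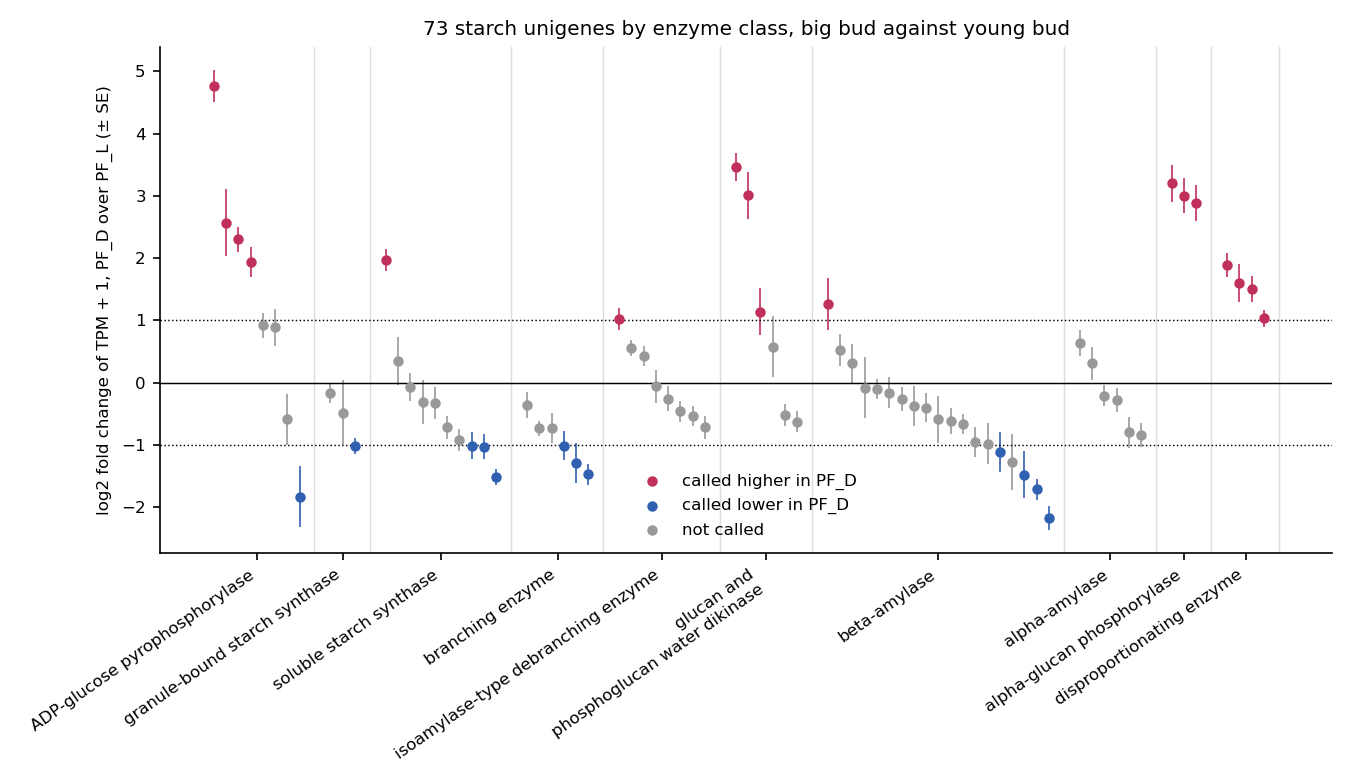
Log2 fold change of TPM + 1 in PF_D over PF_L with its standard error (vertical axis) for each of the 73 unigenes, grouped by enzyme class along the horizontal axis; dotted lines mark a log2 fold change of 1 in either direction. The 3 phosphorylases lie between 2.88 and 3.20, all 6 branching enzymes lie below 0, and ADP-glucose pyrophosphorylase runs from -1.83 to 4.76.

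Synthesis starts with ADP-glucose pyrophosphorylase, a heterotetramer of large and small subunits that is the main point of control of starch formation. Its 8 unigenes summed to 148 ± 14.4 TPM in PF_L, 297 ± 69.2 TPM in PF_Z and 670 ± 136 TPM in PF_D (SD, n = 3 each). The large-subunit unigenes were at 69.4, 184 and 374 TPM on average at PF_L, PF_Z and PF_D, and the small-subunit unigenes at 78.8, 113 and 296 TPM. Called higher were 3 of 8 between PF_Z and PF_L, 4 of 8 between PF_D and PF_Z, and 4 of 8 between PF_D and PF_L.

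The unigene matched to large subunit 3 (APL3, DN8851_c0_g1, 301 bp) had 3.28, 3.55 and 3.14 TPM in PF_L, 30.1, 37.7 and 48.6 TPM in PF_Z, and 86.4, 178 and 102 TPM in PF_D. No library of one stage overlapped with another stage, and this was the steepest rise among the 73. Its log2 fold change was 3.18 ± 0.26 in PF_Z over PF_L (SE, adjusted p = 0.00017), 1.59 in PF_D over PF_Z (adjusted p = 0.002) and 4.76 in PF_D over PF_L (adjusted p = 1.2e-06). In Arabidopsis, large subunit 3 is known as an isoform of sink tissues that is induced by sugars. Being 301 bp long, this unigene covers only part of a coding sequence.

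A long large-subunit unigene showed the same order of stages. DN27885_c1_g1, 4480 bp long, had 39.1, 34.7 and 40.4 TPM in PF_L, 80.3, 73.6 and 99.4 TPM in PF_Z, and 165, 266 and 159.9 TPM in PF_D. It was called higher at both steps, by log2 1.12 and then 1.18, and these 2 large-subunit unigenes were the only ones of the 73 called at each step. Its first step was not called without library PF_Z3 (just under log2 1, adjusted p = 0.019), and its second not without PF_D2 (log2 0.95).

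The main small-subunit unigene (DN25091_c0_g1), for the catalytic subunit, was called higher in PF_D only. It had 84.4, 72.6 and 71.2 TPM in PF_L, 125, 68.6 and 139.7 TPM in PF_Z, and 259, 318 and 301 TPM in PF_D. PF_Z overlapped with PF_L and was not called (log2 0.48, adjusted p = 0.229), while PF_D was higher than PF_Z by log2 1.45 ± 0.24 (SE, adjusted p = 0.002) and higher than PF_L by 1.93 (adjusted p = 0.00019).

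A further large-subunit unigene, DN25212_c0_g1, reached its level by the beginning of coloration, with means of 23.2, 50.9 and 44.4 TPM at PF_L, PF_Z and PF_D. It was called only in PF_Z over PF_L (log2 1.11, adjusted p = 0.010), a call lost without PF_L2 (log2 0.99) or without PF_Z3 (just under log2 1). The only ADP-glucose pyrophosphorylase unigene called lower was a low large-subunit one (ADG2, DN20605_c0_g2), with 0.31 TPM in PF_D against 3.67 TPM in PF_L (log2 -1.83, adjusted p = 0.016). The remaining 3 unigenes of the enzyme averaged 1.19, 1.46 and 6.08 TPM over the libraries. The last of them (DN9301_c0_g1) was higher in PF_D than in PF_L by log2 2.57 (adjusted p = 0.004), and the first, a short APS1 unigene, was higher in PF_D than in PF_Z by log2 1.10 (adjusted p = 0.023), a call lost without PF_Z1 (1.11, adjusted p = 0.054), PF_Z2 (0.92) or PF_D2 (0.97). The other, matched to the inactive small subunit 2 of Arabidopsis (APS2), had a log2 fold change of -0.59 in PF_D over PF_L and was not called.

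Granule-bound starch synthase 1, the product of WAXY genes, makes amylose. Its most abundant unigene, DN27966_c1_g1, had 227, 197 and 189.8 TPM in PF_L, 256, 228 and 292 TPM in PF_Z, and 209, 163 and 176 TPM in PF_D, and was not called in any comparison. A short unigene of 365 bp counted in the granule-bound class carries the gene name SS2, not WAXY (DN9676_c0_g1). It averaged 1.40 TPM over the libraries and was not called either. The other long WAXY unigene, DN25657_c0_g1, had 73.7, 68.0 and 75.6 TPM in PF_L, 86.6, 79.1 and 73.8 TPM in PF_Z, and 31.7, 37.7 and 36.2 TPM in PF_D. Its PF_D libraries lay below all others, by log2 -1.16 ± 0.13 against PF_Z (SE, adjusted p = 0.00021) and -1.02 against PF_L (adjusted p = 0.00021). The call against PF_L sat at the fold limit and was lost without PF_L3 (log2 -0.99), without PF_D1 (log2 -0.95) and with median-of-ratios scaling (log2 -0.89).

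The soluble synthases build amylopectin, and their isoforms moved in opposite directions. Starch synthase 1, which extends the shortest chains, was called higher: DN24862_c0_g1 had 9.14, 11.3 and 9.38 TPM in PF_L, 22.0, 16.8 and 16.2 TPM in PF_Z, and 35.8, 44.2 and 46.4 TPM in PF_D. Each stage lay above the one before, and the log2 fold change was 1.97 ± 0.17 in PF_D over PF_L (SE, adjusted p = 2.1e-05). The first step, log2 0.81, was not called. It was called with median-of-ratios scaling (log2 1.03, adjusted p = 0.009) and with quantile scaling (log2 1.03, adjusted p = 0.008).

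Starch synthase 2, which makes chains of intermediate length, showed the reverse order. DN27895_c1_g4 had 39.9, 43.8 and 40.5 TPM in PF_L, 28.1, 31.7 and 31.2 TPM in PF_Z, and 14.9, 14.3 and 12.4 TPM in PF_D. It was lower in PF_D by log2 -1.08 ± 0.13 against PF_Z (SE, adjusted p = 0.00035) and by -1.52 against PF_L (adjusted p = 2.1e-05). In PF_L starch synthase 2 was thus the more abundant of the pair in every library, and in PF_D starch synthase 1 was.

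Starch synthase 3, which makes long chains, summed over 4 unigenes of one component to 36.6 ± 1.08 TPM in PF_D and 64.8 ± 2.47 TPM in PF_L (SD, n = 3 each). Only 2 of its short unigenes were called lower (log2 -1.03 and -1.01), neither with median-of-ratios or quantile scaling. Both also lost the call without PF_D1, one of them without PF_L3 and the other without PF_L1, PF_L2 or PF_D3, at log2 values between -0.99 and -0.81. Starch synthase 4, linked in Arabidopsis to granule initiation, summed to 39.6 ± 2.56 TPM in PF_D and 50.3 ± 7.79 TPM in PF_L (SD, n = 3 each), and none of its 4 unigenes was called. The sum over all 10 soluble synthase unigenes was 132 ± 5.84 TPM in PF_D against 166 ± 4.49 TPM in PF_L (SD, n = 3 each). That difference, a log2 ratio of -0.33, was -0.02 when only unigenes of 1000 bp or more were summed.

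Branching enzymes introduce the branch points of amylopectin. All 6 of their unigenes had lower fitted values in PF_D than in PF_L, and 3 were called. Their sum was 150 ± 4.75 TPM in PF_L, 120 ± 6.95 TPM in PF_Z and 85.3 ± 13.0 TPM in PF_D (SD, n = 3 each). The most abundant, SBEII (DN27607_c1_g1), had 73.4, 75.5 and 67.0 TPM in PF_L, 60.4, 64.2 and 57.3 TPM in PF_Z, and 42.1, 45.2 and 41.7 TPM in PF_D. Its stages did not overlap, with adjusted p = 0.001 for PF_D against PF_L, but the log2 fold change of -0.73 stayed short of the limit.

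SBE3 (DN27788_c0_g1) had 13.8, 13.0 and 15.8 TPM in PF_L, 8.78, 9.75 and 10.1 TPM in PF_Z, and 3.68, 4.88 and 4.96 TPM in PF_D, and was called lower in PF_D than in PF_L (log2 -1.47 ± 0.17 (SE), adjusted p = 0.00014). The 2 other SBE3 unigenes were also called lower, by log2 -1.01 and -1.29. The call at -1.01 was lost without PF_L2 (log2 -0.89), without PF_D1 (log2 -0.77) and with median-of-ratios (log2 -0.88) or quantile scaling (log2 -0.87). SBEI and SBE2.1 unigenes were not called (log2 -0.36 and -0.73 in PF_D over PF_L).

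Isoamylase-type debranching enzymes serve both sides. Isoamylases 1 and 2 act together in granule formation, while isoamylase 3 removes branches during breakdown, as known from Arabidopsis. Isoamylase 1 summed to 58.5, 46.6 and 35.9 TPM on average at PF_L, PF_Z and PF_D, and isoamylase 2 to 30.5, 22.5 and 23.0 TPM. None of these 4 unigenes was called.

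Isoamylase 3 had its highest values at the beginning of coloration. Its 4 unigenes summed to 179 ± 5.89 TPM in PF_L, 373 ± 42.6 TPM in PF_Z and 278 ± 31.8 TPM in PF_D (SD, n = 3 each). The most abundant, DN28140_c4_g1, had 96.8, 95.5 and 97.8 TPM in PF_L, 224, 156 and 181 TPM in PF_Z, and 136, 116 and 142 TPM in PF_D. The stages did not overlap, yet the log2 fold change of 0.93 in PF_Z over PF_L (adjusted p = 0.006) stayed under the limit. It passed with median-of-ratios scaling (1.16) and without PF_Z2 (1.05).

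A short isoamylase 3 unigene, DN7207_c0_g1 (263 bp), was called higher in PF_Z. It had 49.6, 54.1 and 39.6 TPM in PF_L, 117, 104 and 131 TPM in PF_Z, and 120.1, 86.2 and 88.1 TPM in PF_D, with a log2 fold change of 1.29 ± 0.18 in PF_Z over PF_L (SE, adjusted p = 0.002). Its call in PF_D over PF_L (log2 1.02) was lost without PF_L3 (0.89) or PF_D1 (0.87) and with quantile scaling (0.98). A low isoamylase 3 unigene, DN12371_c0_g1, had 4.61, 4.61 and 4.89 TPM in PF_L, 13.0, 7.12 and 11.99 TPM in PF_Z, and 4.96, 2.95 and 5.95 TPM in PF_D. It was lower in PF_D than in PF_Z by log2 -1.06 (adjusted p = 0.017), a call lost without PF_Z1 (-0.91), PF_Z3 (-0.96) or PF_D2 (-0.82).

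Breakdown starts at the granule surface with glucan water dikinase, which adds phosphate to glucose units and so opens the crystalline layers to other enzymes. The long unigene matched to the R1 protein (alpha-glucan water dikinase) of Citrus reticulata, DN28522_c1_g1 (5397 bp), had 41.2, 38.1 and 42.8 TPM in PF_L, 51.7, 41.6 and 71.3 TPM in PF_Z, and 347, 614 and 447 TPM in PF_D. PF_L and PF_Z overlapped, and every PF_D library was far above both. The log2 fold change was 0.39 in PF_Z over PF_L, not called, 3.07 ± 0.23 in PF_D over PF_Z (SE, adjusted p = 2.5e-05) and 3.46 in PF_D over PF_L (adjusted p = 4.5e-06).

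Summed over its 4 unigenes, glucan water dikinase was at 487 ± 137 TPM in PF_D, against 43.5 ± 3.96 TPM in PF_L (SD, n = 3 each), a ratio of 11.2. The 2 R1 unigenes of 209 and 879 bp were also called higher in PF_D than in either earlier stage, at means of 12.3 and 3.19 TPM in PF_D. The calls of the 879 bp one were lost when any single PF_D library was left out (log2 1.06 to 1.29, adjusted p = 0.062 to 0.119), and without PF_L2, PF_Z1, PF_Z3 or PF_L3 in one comparison or the other.

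Phosphoglucan water dikinase (GWD3), which acts on glucans already phosphorylated by the first enzyme, was not called in any comparison. Its 2 unigenes summed to 66.5 ± 4.13 TPM in PF_L, 57.5 ± 6.94 TPM in PF_Z and 44.0 ± 7.85 TPM in PF_D (SD, n = 3 each). Their log2 fold changes in PF_D over PF_L were -0.63 and -0.52.

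**Figure D3:**
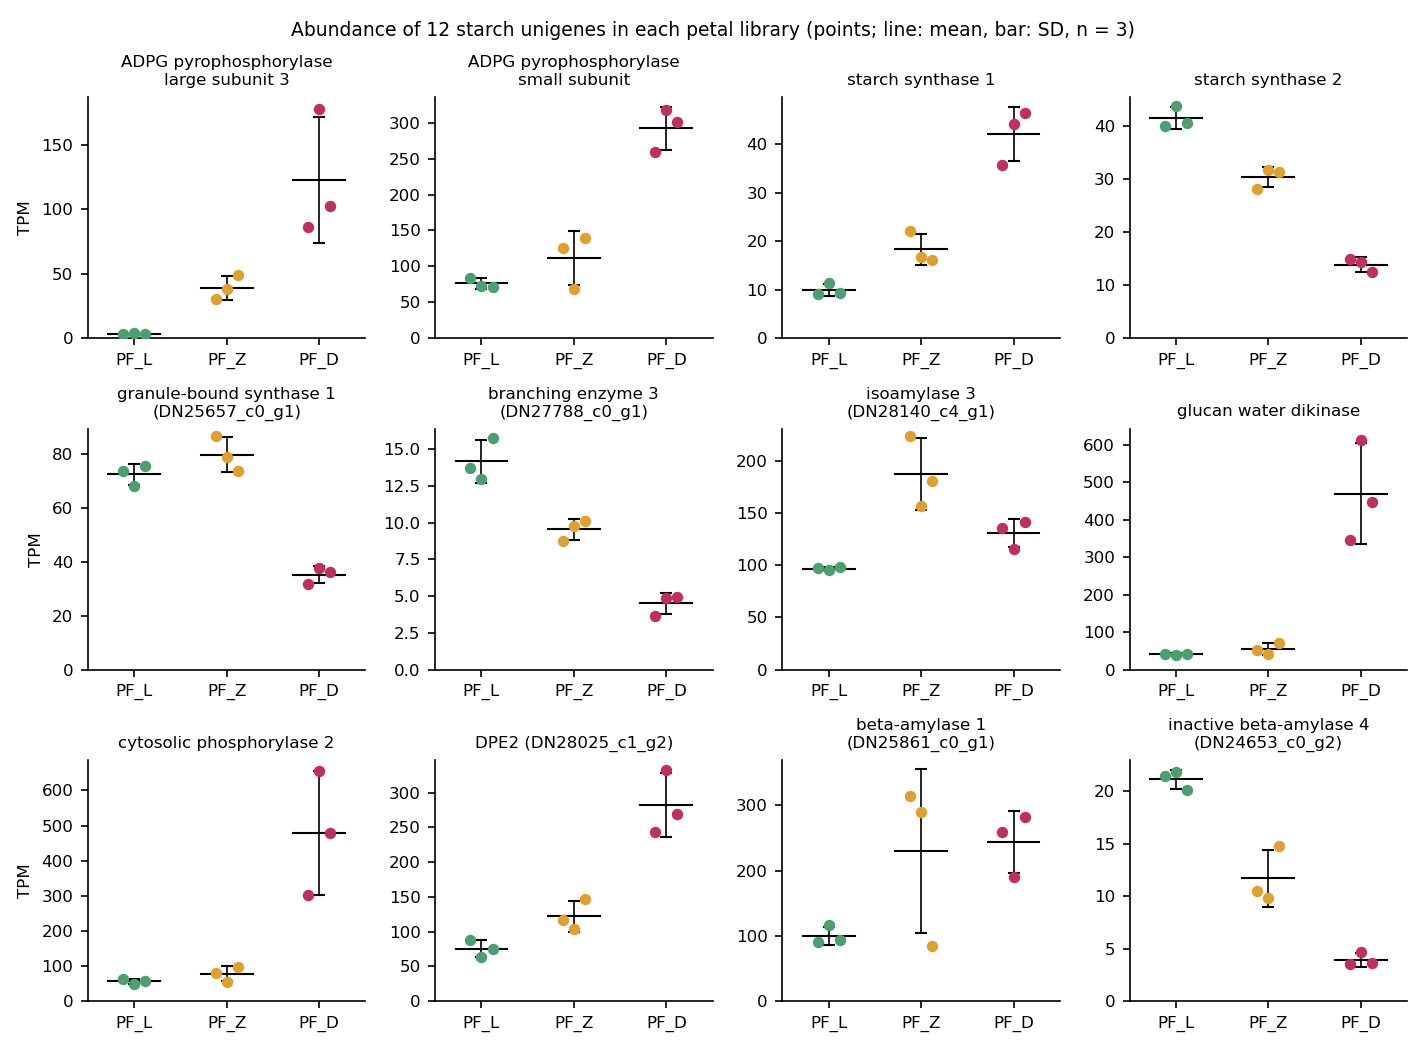
TPM (vertical axes, from 0) of 12 starch unigenes in each library, by stage from PF_L to PF_D; points are libraries, lines are means and bars are SDs (n = 3). Glucan water dikinase and cytosolic phosphorylase 2 stay under 100 TPM in all PF_L and PF_Z libraries and are at 301 TPM or more in every PF_D library, and beta-amylase 1 shows 1 PF_Z library at 85.0 TPM beside 2 near 300 TPM.

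The alpha-glucan phosphorylases chosen by description were all of the cytosolic (H) type, which in Arabidopsis works on the glucans formed by DPE2 from maltose. Phosphorylase 2 (PHS2, DN27554_c0_g1, 2598 bp) had 62.7, 49.6 and 56.7 TPM in PF_L, 80.1, 55.1 and 97.1 TPM in PF_Z, and 301, 655 and 479.9 TPM in PF_D. As with the dikinase, the early stages overlapped and PF_D stood apart, by log2 2.58 ± 0.28 over PF_Z (SE, adjusted p = 0.00019) and 3.0 over PF_L (adjusted p = 3.4e-05).

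The H-isozyme unigene of the same component, DN27554_c0_g2 (246 bp), was the most abundant of the 73. It had 99.0, 86.9 and 115 TPM in PF_L, 229, 117 and 178 TPM in PF_Z, and 518, 1016 and 766 TPM in PF_D. A further H-isozyme unigene, DN22906_c1_g2 (422 bp), had 43.7, 33.8 and 40.1 TPM in PF_L, 43.5, 32.3 and 66.0 TPM in PF_Z, and 242, 526 and 383 TPM in PF_D. Both were called higher in PF_D than in PF_L, by log2 2.88 (adjusted p = 4.5e-05) and 3.20 (adjusted p = 3.5e-05). Within PF_D, library PF_D2 was the highest and PF_D1 the lowest for all 3 phosphorylases and for the long dikinase unigene.

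Disproportionating enzymes move glucan or glucose units between chains. DPE2, the cytosolic enzyme that splits maltose, summed over 3 unigenes to 183 ± 19.9 TPM in PF_L, 322 ± 84.3 TPM in PF_Z and 601 ± 106 TPM in PF_D (SD, n = 3 each). Its most abundant unigene, DN28025_c1_g2, had 87.8, 63.8 and 74.5 TPM in PF_L, 116, 103 and 147 TPM in PF_Z, and 244, 333 and 269.7 TPM in PF_D. Stages did not overlap, and PF_D was higher by log2 1.20 ± 0.19 over PF_Z (SE, adjusted p = 0.001) and 1.89 over PF_L (adjusted p = 4.4e-05). The other DPE2 unigenes were called higher in PF_D than in PF_L by log2 1.51 and 1.60.

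The plastid enzyme (DPEP, DN26067_c0_g1), which recycles maltotriose, had 37.3, 36.4 and 34.8 TPM in PF_L, 45.9, 44.5 and 37.8 TPM in PF_Z, and 78.3, 72.8 and 73.5 TPM in PF_D. It was called higher in PF_D than in PF_L at the fold limit (log2 1.03, adjusted p = 0.00017), a call lost without PF_D1, where the log2 fold change was just under 1.

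Beta-amylases release maltose from chain ends, and with 19 unigenes they were the most numerous class. Their sum differed by less than its SD between PF_D and PF_L, with 518 ± 61.1 TPM in PF_D and 498 ± 44.9 TPM in PF_L (SD, n = 3 each). Of the 19, 1 was called higher in PF_D than in PF_L and 4 lower. Between PF_D and PF_Z none was called higher and 5 were lower, with 1 higher and 8 lower at an unadjusted p under 0.05.

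The unigene called higher was matched to plastid beta-amylase 1 (BAM1, DN25861_c0_g1), the most abundant of the class. It had 91.1, 116 and 93.3 TPM in PF_L, 314, 289.8 and 85.0 TPM in PF_Z, and 259, 190.4 and 282 TPM in PF_D. PF_D lay above PF_L in every library (log2 1.26 ± 0.42 (SE), adjusted p = 0.039), whereas PF_Z was split, with PF_Z3 below all PF_L libraries. The call was lost when any single PF_L or PF_D library was left out (log2 1.15 to 1.43, adjusted p = 0.051 to 0.111). PF_Z over PF_L was not called with all libraries (log2 0.98, adjusted p = 0.166) and was called without PF_Z3 (log2 1.59, adjusted p = 0.002), and without PF_Z3 PF_D over PF_L had adjusted p = 0.00056.

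Library PF_Z3 also stood apart for other beta-amylases. BAM3 (DN15932_c1_g1), the main beta-amylase of leaf starch breakdown in Arabidopsis, had 1.35, 0.88 and 6.04 TPM in PF_Z against a PF_L mean of 6.50 TPM, and was called lower in PF_Z only without PF_Z3 (log2 -1.83, adjusted p = 0.006; with it -1.25, adjusted p = 0.110). In PF_D against PF_L it had 1.27, 2.97 and 2.30 TPM against 7.43, 6.11 and 5.95 TPM, with no overlap, and just missed the adjusted p limit (log2 -1.27, adjusted p = 0.050). It was called lower there without PF_Z2 (adjusted p = 0.035), without PF_Z3 (0.006), with a filter of 5 TPM (0.039) and in a model of the 6 libraries compared (0.007). The same library had the lowest PF_Z values of both BAM7 unigenes.

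BAM7 and BAM8 carry, in Arabidopsis, a DNA-binding domain like that of brassinosteroid-responsive transcription factors and are found in the nucleus. The BAM7 unigene DN22216_c0_g1 had 49.9, 40.7 and 56.3 TPM in PF_L, 46.5, 76.2 and 26.0 TPM in PF_Z, and 25.1, 18.0 and 23.6 TPM in PF_D. The second, DN23432_c0_g1, had 64.3, 52.4 and 76.6 TPM in PF_L, 78.7, 103.5 and 36.7 TPM in PF_Z, and 39.9, 25.8 and 31.3 TPM in PF_D. Both were called lower in PF_D than in PF_Z (log2 -1.01 and -1.05), and the first also than in PF_L (log2 -1.11, adjusted p = 0.023). These calls were held by few libraries. The PF_D against PF_Z call of the first was lost when any library other than PF_Z3 was left out (log2 -1.10 to -0.64), and that of the second when any library other than PF_Z3 and PF_D1 was (log2 -1.05 to -0.74), while without PF_Z3 they were at -1.40 and -1.48. The first lost its call against PF_L without PF_L1, PF_L3 or PF_D2 (log2 -1.09 to -0.97). None of the 4 BAM8 unigenes was called. Nor were BAM2, the second BAM3 unigene, the 3 other BAM1 and the 2 other BMY1 unigenes, with log2 fold changes of -0.95 to 0.52 in PF_D over PF_L.

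BAM4, which lacks catalytic activity in Arabidopsis but is needed there for normal starch breakdown, fell in both of its unigenes. DN24653_c0_g2 had 21.4, 21.8 and 20.1 TPM in PF_L, 10.5, 9.86 and 14.8 TPM in PF_Z, and 3.49, 4.70 and 3.65 TPM in PF_D. Stages did not overlap, and PF_D was lower by log2 -1.35 ± 0.19 than PF_Z (SE, adjusted p = 0.00074) and by -2.17 than PF_L (adjusted p = 2.1e-05). The second unigene was lower in PF_D than in PF_L by log2 -1.71 (adjusted p = 4e-05).

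A BMY1 unigene, matched to an extraplastidic type of beta-amylase, was also lower. DN17120_c0_g3 had 9.35, 5.79 and 7.40 TPM in PF_L, 10.4, 3.56 and 11.1 TPM in PF_Z, and 2.11, 1.25 and 2.85 TPM in PF_D. The fall was log2 -1.48 against PF_L (adjusted p = 0.012) and -1.52 against PF_Z (adjusted p = 0.015), and the call against PF_Z was lost without PF_Z1 or PF_D2 (both -1.31). BAM9 (DN25489_c0_g1), another type without catalytic activity in Arabidopsis, was among the more abundant at 102 ± 24.6 TPM in PF_D and 86.7 ± 44.2 TPM in PF_L (SD, n = 3 each), and was not called.

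Alpha-amylases cut within chains. Their 6 unigenes summed to 61.6 ± 2.46, 80.2 ± 11.2 and 67.4 ± 14.4 TPM at PF_L, PF_Z and PF_D (SD, n = 3 each). None was called between PF_D and PF_L, where 1 was higher and 2 lower at an unadjusted p under 0.05. The plastid type AMY3 (DN27751_c1_g2), the most abundant, had 22.0, 20.1 and 20.4 TPM in PF_L, 28.5, 17.8 and 36.3 TPM in PF_Z, and 17.9, 31.7 and 30.7 TPM in PF_D, with overlap throughout. Only AMY1.1 (DN19963_c0_g2) was called, with 2.61, 3.32 and 3.62 TPM in PF_D against 11.6, 13.0 and 11.2 TPM in PF_Z (log2 -1.63 ± 0.20 (SE), adjusted p = 0.00031). Its PF_L values of 7.96, 5.84 and 5.69 TPM lay between the other stages. PF_Z over PF_L was not called for AMY1.1 (log2 0.79, adjusted p = 0.032). It was called with median-of-ratios (log2 1.01) and quantile scaling (log2 1.02), both at adjusted p = 0.012.

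Other genes of the pathway, outside the descriptions above, were listed by name: transporters of sugars and adenylates at the plastid envelope, phosphoglucan phosphatases, hexose-phosphate enzymes, plastid (L-type) phosphorylases and proteins that help starch synthases. Of 37 tested, 2 (5.41%) were called higher and 10 (27.0%) lower in PF_D against PF_L, where 9.38% and 15.7% of all tested unigenes were. Between PF_D and PF_Z 2 (5.41%) were higher and 5 (13.5%) lower, against 8.89% and 9.07% of all tested. Between PF_Z and PF_L none was higher and 2 (5.41%) were lower, against 2.15% and 4.7% of all tested, with 4 higher and 9 lower at an unadjusted p under 0.05.

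The 2 that were higher in PF_D than in PF_L act around hexose phosphates. Cytosolic phosphoglucomutase (PGM1, DN24318_c0_g2), which interconverts glucose 1-phosphate and glucose 6-phosphate, had 168, 214 and 180.2 TPM in PF_D against 84.9, 73.9 and 74.0 TPM in PF_L (log2 1.26, adjusted p = 0.00019). Its PF_Z values were 76.2, 74.4 and 98.8 TPM. GPT1 (DN25266_c1_g2), which imports glucose 6-phosphate into plastids, had 65.9, 65.5 and 59.1 TPM in PF_D against 31.6, 27.9 and 29.9 TPM in PF_L (log2 1.07, adjusted p = 0.00038). The other translocator, GPT2 (DN17612_c0_g1), had 1.09, 0.51 and 0.70 TPM in PF_D against 6.72, 4.96 and 6.28 TPM in PF_L (log2 -1.99, adjusted p = 0.00016). It was already lower in PF_Z, at 2.07, 1.92 and 1.99 TPM (log2 -1.21, adjusted p = 0.013), a call lost without PF_L1 or PF_L3 (adjusted p = 0.061 and 0.062). A short unigene of plastid pyrophosphatase 6 (PPA6, DN20761_c0_g2), an enzyme that removes a product of ADP-glucose formation, had 0.65, 0.62 and 0.43 TPM in PF_Z against 3.51, 5.39 and 2.04 TPM in PF_L (log2 -1.51, adjusted p = 0.022), and lost its call without PF_L1, PF_L2, PF_Z1 or PF_Z2 (adjusted p = 0.058 to 0.082). The longer PPA6 unigene of the same component (DN20761_c0_g1, 1262 bp) averaged 50.3, 41.1 and 26.3 TPM at PF_L, PF_Z and PF_D. It was not called in any comparison (log2 -0.30 in PF_Z over PF_L and -0.91 in PF_D over PF_L). An alpha-glucosidase unigene of 210 bp (DN25388_c0_g4) had 2.84, 7.94 and 3.13 TPM in PF_D against 0.0, 1.62 and 0.76 TPM in PF_Z (log2 1.65, adjusted p = 0.017), and lost its call without PF_Z1 (1.28) or PF_D2 (1.26). The long unigene of the same component (DN25388_c0_g1, 2832 bp) went the other way and was not called. It had 19.8, 25.5 and 21.4 TPM in PF_D against 39.3, 26.0 and 42.9 TPM in PF_Z (log2 -0.65, adjusted p = 0.037). Other unigenes described as alpha-glucosidase or alpha-glucosidase 2 were at log2 0.63, 0.82 and 0.11 in PF_D over PF_Z, none called.

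Among the phosphoglucan phosphatases, pullulanase and the maltose exporter in this list, those called were lower in PF_D. The phosphatase DSP4 (DN20341_c0_g1), a relative of Arabidopsis SEX4 that removes the phosphate set by the dikinases, had 34.3, 29.97 and 33.0 TPM in PF_D against 67.9, 64.2 and 75.4 TPM in PF_Z (log2 -1.07, adjusted p = 0.00035), and was not called against PF_L (log2 -0.87). The related LSF1 was lower in PF_D than in PF_L by log2 -1.63 (adjusted p = 0.00046). The phosphatase LSF2 and the debranching enzyme pullulanase (PU1) were not called, with 39.8 ± 4.30 and 9.49 ± 0.47 TPM in PF_D against 33.4 ± 1.73 and 7.19 ± 0.93 TPM in PF_L (SD, n = 3 each). Their log2 fold changes were 0.24 (adjusted p = 0.336) and 0.36 (adjusted p = 0.114). Every PF_D library of both lay above every PF_L library, as was the case for 20.6% of all tested unigenes. The maltose exporter MEX1 (DN28329_c2_g2) had 21.6, 29.1 and 40.8 TPM in PF_D against 64.8, 65.3 and 62.5 TPM in PF_L (log2 -1.10, adjusted p = 0.028). Its PF_Z libraries were spread over 63.6, 34.5 and 98.5 TPM, and its call against PF_L was lost without any one of the PF_L libraries, PF_D1 or PF_D2 (log2 -1.12 to -0.88, adjusted p = 0.065 to 0.10).

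Plastid and cytosolic phosphorylases were called in opposite directions between PF_D and PF_L. The 5 L-type unigenes summed to 54.1, 65.2 and 63.7 TPM in PF_D against 134, 137 and 134 TPM in PF_L, and 3 of them were called lower. One of these, PHO1 (DN16309_c0_g1), had 21.6, 29.3 and 27.2 TPM in PF_D against 53.3, 49.2 and 57.3 TPM in PF_L (log2 -1.01, adjusted p = 0.001), a call lost without PF_L3 (-0.96) or PF_D1 (-0.89). The other called ones were DN17882_c0_g1 (log2 -1.79, adjusted p = 0.00017) and DN22405_c0_g2 (log2 -1.21, adjusted p = 0.00019). Each kept its call under all 19 alternatives. The 3 cytosolic-type unigenes summed to 1061, 2197 and 1629 TPM in PF_D against 205, 170.0 and 212 TPM in PF_L. Summed TPM of the cytosolic type was thus above that of the plastid type in every library of both stages. Both sums can count a gene in pieces more than once. The long PHS2 unigene alone was below the L-type sum in every PF_L library and above it in every PF_D library.

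Markers of petal identity and of other flower tissues were measured in the same libraries. The B-class gene PMADS2, which marks petals and stamens alike, summed to 1560 to 2009 TPM in every library. AGAMOUS, which marks stamens and carpels, summed to between 1.70 and 13.1 TPM, with the highest value in PF_Z3. Green-tissue genes (31 light-harvesting and Rubisco small-subunit unigenes) summed to 2041, 546 and 1205 TPM in PF_D against 9895, 6572 and 7934 TPM in PF_L, and were at 8997, 4739 and 2238 TPM in PF_Z. Of the 31, 26 were called lower and none higher in PF_D against PF_L, with 28 lower and 1 higher at an unadjusted p under 0.05. Starch synthase 2, SBE3, BAM4 and the other starch unigenes called lower fell between the same stages, and the part of green tissue in this was not tested.

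For stamens, 20 of 22 anther and pollen unigenes were tested, of which 7 were called higher and 7 lower in PF_D against PF_L. Their summed TPM was 146 to 218 in PF_D and 178 to 214 in PF_L. The pollen gene LAT52 (DN11388_c0_g1) had 63.8, 7.82 and 31.5 TPM in PF_D against 1.23, 1.10 and 0.44 TPM in PF_L, while the tapetum regulator AMS averaged 0.62 TPM in PF_D and 2.85 TPM in PF_L. Another of the 7 called higher, a unigene matched to TKPR2 (DN17599_c0_g2), had 21.7, 36.9 and 30.3 TPM in PF_D against 10.5, 10.9 and 11.5 TPM in PF_L. The match alone does not show that this unigene is an anther gene. Across PF_D1, PF_D2 and PF_D3 the order of LAT52 was the reverse of that of the phosphorylases and the long glucan water dikinase unigene, and the order of TKPR2 was the same as theirs. The part of stamen tissue in the starch results was not tested.

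**Figure D4:**
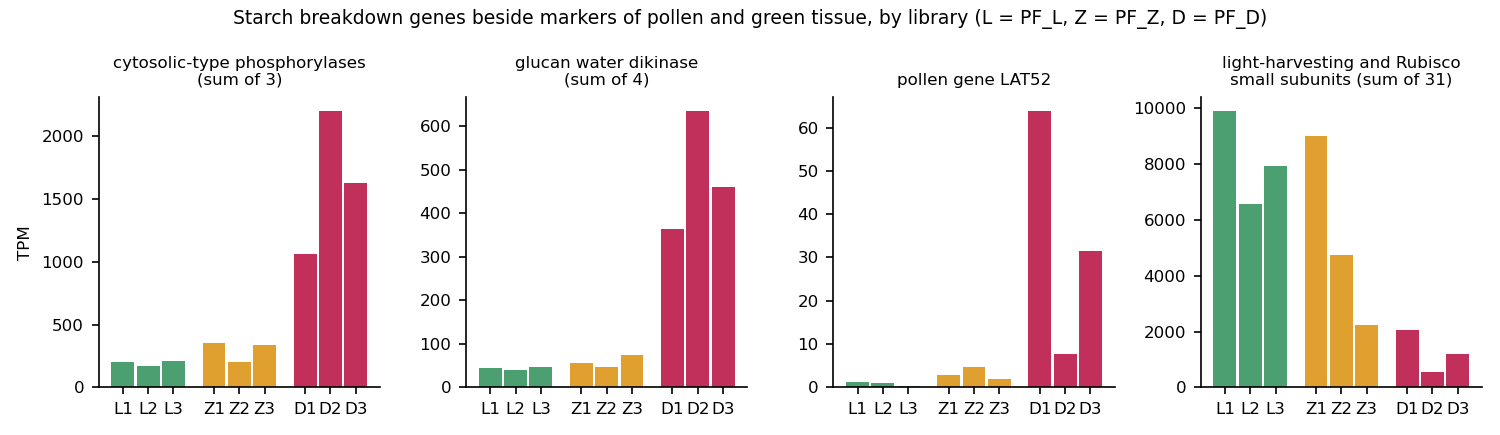
TPM (vertical axes, from 0) of summed cytosolic-type phosphorylase, summed glucan water dikinase, the pollen gene LAT52 and summed green-tissue genes in each of the 9 libraries (bars; L, Z and D stand for PF_L, PF_Z and PF_D). Phosphorylase and dikinase are highest in PF_D2, at 2197 and 635 TPM, LAT52 is highest in PF_D1 at 63.8 TPM, and the green-tissue sum is lowest in PF_D2 at 546 TPM; LAT52 is 1 of 22 anther and pollen unigenes and does not stand for all of them.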

How the data were processed

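The authors extracted RNA from petals, selected poly(A) RNA, sequenced it on an Illumina HiSeq platform, trimmed reads with Cutadapt, assembled all libraries together with Trinity and annotated the longest transcript of each cluster with DIAMOND. The deposited file holds TPM, calculated by the authors for each unigene and library. The program behind the TPM is not given in the sources used here, and the submitters' processing notes name StringTie 1.3.0, HISAT2 2.0, Bowtie 0.12.2 and mm8, with nothing said of their use.

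Stages and replicates came from the sample titles. Unigenes that reached 1 TPM in 3 libraries were analysed as log2(TPM + 1), with a pseudocount of 1, in limma 3.58.1 (R 4.3.3), using 1 mean per stage over the 9 libraries, an abundance trend and Benjamini-Hochberg adjustment. The study's own count test was not run on TPM. The procedure was tested on simulated data.

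Values in every library are given for the most abundant unigene of each enzyme class and for the called unigenes with the largest rise and fall in each class and comparison, if they reached 5 TPM in the higher stage. DN27885_c1_g1, the smaller isoamylase 3 unigenes, BAM7, BAM3, DPEP and the markers were added after their values were seen, as were LSF1, LSF2, PU1, TKPR2 and the L-type phosphorylases. The starch genes and all lists were chosen with earlier results of these data known. Alternatives were a pseudocount of 0.1 or 5, no filter or one of 5 TPM, median-of-ratios or quantile scaling, a replicate block, a constant prior variance, a model of only the 6 libraries of the stages compared, omission of each library, and 0.01 as the limit of adjusted p. Sums over unigenes of 1000 bp or more were added after seeing the data. No sequences of these unigenes were used here.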

Additional observations from a re-analysis of the deposited data

How the results depend on the processing

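No called starch unigene changed direction under any of the 19 alternatives that could be run for it. Of the 17 unigenes called higher in PF_D than in PF_L, 13 were called under every alternative, and of the 12 called lower, 4 were. For PF_D against PF_Z this held for 8 of 12 higher and 2 of 9 lower, and for PF_Z against PF_L for 2 of 4 higher.

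With a pseudocount of 5, 2 starch unigenes in place of 9 were lower in PF_D than in PF_Z and 4 in place of 12 lower in PF_D than in PF_L. An adjusted p limit of 0.01 left 5 lower in PF_D than in PF_Z, and median-of-ratios scaling left 7 lower in PF_D than in PF_L. Both scalings of the libraries raised the number higher in PF_Z than in PF_L to 11, in place of 4. Over all tested unigenes, median-of-ratios scaling gave 1417 higher and quantile normalization 1470, in place of 1029. Leaving out single libraries gave 3 to 7 higher and 0 to 1 lower in PF_Z against PF_L (7 without PF_Z2, and the 1 lower, BAM3, without PF_Z3), 9 to 12 higher and 5 to 10 lower in PF_D against PF_Z (5 without PF_Z1 or without PF_D2), and 14 to 17 higher and 9 to 13 lower in PF_D against PF_L.

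For the other starch genes, a pseudocount of 5 gave 0 lower in PF_Z against PF_L, 1 higher and 1 lower in PF_D against PF_Z, and 1 higher and 4 lower in PF_D against PF_L. A filter of 5 TPM and the limit of 0.01 each gave 0 lower in PF_Z against PF_L and 1 higher in PF_D against PF_Z, and quantile normalization gave 0 lower in PF_Z against PF_L. Without single libraries, 0 to 1 were higher (1 without PF_Z3) and 0 to 3 lower in PF_Z against PF_L (none without PF_L1), and 1 to 2 higher in PF_D against PF_Z (1 without PF_Z1 or PF_D2).

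With median-of-ratios scaling the log2 ratios of summed TPM in PF_Z over PF_L became 0.52 for granule-bound synthases, 0.02 for soluble synthases, -0.08 for branching enzymes, 0.96 for isoamylases and 0.61 for alpha-amylases, and in PF_D over PF_L -0.20 for soluble synthases and 0.47 for isoamylases. Summed over unigenes of 1000 bp or more, soluble synthases were at 0.14 in PF_D over PF_Z and -0.02 in PF_D over PF_L, and isoamylases at 0.21 in PF_D over PF_L. The cause of these changes was not tested.

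Replicate numbers share only a number: over 9 pairs of same-numbered libraries the correlation of deviations from the stage means ran from -0.096 to 0.043. With a replicate block, 5 starch unigenes were higher and 0 lower in PF_Z than in PF_L, 12 higher and 7 lower in PF_D than in PF_Z, and, in PF_D against PF_L, 17 higher and 12 lower. Read depth, which TPM does not keep, limits the unigenes of a few TPM most, and 13 of the 73 averaged under 5 TPM. With 3 libraries a stage, an exact permutation test of a single value cannot go below p = 0.10.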
